A study of Mus musculus with 6 samples.

Results

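The 10 genes of the neutrophil programme named here, called its members, were followed in lung RNA-seq of RAG1-/- and RAG1-/-Sgo1-/+ mice. The deposited count table lists 25860 genes. The members are 5 genes of the mature cell (S100a8, S100a9, Retnlg, Csf3r and Cxcr2) and 5 genes of granule proteins (Mmp8, Mmp9, Ngp, Camp and Ltf). They were chosen by name with their levels in this same comparison known (in CPM, the reads of a gene per 1000000 reads on genes in the library), so their differences between the genotypes are given as a description with no test. All 10 are in the table, and 8 of them had the 10 reads over all libraries that were required for the fit. Ngp and Camp did not.

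Normal-looking lung tissue was taken from untreated mice kept to 12 months of age, with 1 library for each of 3 RAG1-/- mice (L1, L2 and L3) and 3 RAG1-/-Sgo1-/+ mice (L4, L5 and L6). Both groups lack RAG1, which is needed to assemble antigen receptors, so both are expected to lack mature T and B cells. The second group is also heterozygous for Sgo1, the gene of Shugoshin-1, a protector of centromeric cohesion whose loss gives chromosome instability. The alleles are carried in every cell of the animal, and the tissue is whole lung with the blood it held. The labels do not give the sex of the mice.

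Neutrophils are short-lived phagocytes that are made in the bone marrow, circulate in blood and collect in the capillaries of the lung. Their granule proteins are transcribed in sequence while the cell matures. Genes of primary granules (Mpo, Elane) come first, genes of secondary or specific granules (Ltf, Camp, Ngp, Mmp8) follow, and the gelatinase gene Mmp9 comes late. Circulating cells have shut off most granule transcription but carry abundant S100a8 and S100a9 transcripts. Several members are not exclusive to neutrophils: S100a8, S100a9 and Csf3r are also transcribed in monocytes, Mmp9 in macrophages, and Ltf in glandular and airway epithelium.

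The members lie on 6 chromosomes. S100a8 and S100a9 are neighbours on chromosome 3 with 0 protein-coding genes between them, and Mmp8, Camp, Ngp and Ltf are on chromosome 9. In RefSeq's annotation of GRCm38.p6 there are 8 protein-coding genes between Camp and Ngp, 20 between Ngp and Ltf and 1020 between Mmp8 and Camp. Retnlg is on chromosome 16, Csf3r on chromosome 4, Cxcr2 on chromosome 1 and Mmp9 on chromosome 2. Promoter windows were found for 9 of the 10 members, all but Mmp9. In the 250 bases before the start site, 3 motifs of myeloid and general promoters were searched on both strands: TTGCNNAA, a core of sites for the C/EBP factors that drive granule genes, AGGAAGT, a core of PU.1 sites, and TATAAA. The C/EBP core was in 5 of the 9 windows, against 9.56% of 32851 promoter windows of the same length. PU.1 was in 2 of 9 against 7.69%, and TATAAA in 1 of 9 against 12.4%. The 6 windows that hold a match are given here, 5′ to 3′ on the strand of the gene, with each match in capitals. No match overlaps another. The sequences are RefSeq's on GRCm38.p6, at chr3:90668821-90669070 (plus strand), chr3:90695722-90695971 (minus strand), chr16:48872358-48872607 (plus strand), chr9:7558179-7558428 (plus strand), chr9:110419558-110419807 (plus strand) and chr9:111019042-111019291 (plus strand).
S100a8: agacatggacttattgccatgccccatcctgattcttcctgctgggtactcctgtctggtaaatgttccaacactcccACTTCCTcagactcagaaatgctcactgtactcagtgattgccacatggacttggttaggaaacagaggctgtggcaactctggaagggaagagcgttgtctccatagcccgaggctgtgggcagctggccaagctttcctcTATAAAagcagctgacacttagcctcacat
S100a9: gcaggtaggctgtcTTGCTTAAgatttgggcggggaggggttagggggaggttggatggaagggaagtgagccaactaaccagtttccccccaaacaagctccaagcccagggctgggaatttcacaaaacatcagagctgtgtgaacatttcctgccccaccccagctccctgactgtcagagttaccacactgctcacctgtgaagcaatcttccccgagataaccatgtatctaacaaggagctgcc
Retnlg: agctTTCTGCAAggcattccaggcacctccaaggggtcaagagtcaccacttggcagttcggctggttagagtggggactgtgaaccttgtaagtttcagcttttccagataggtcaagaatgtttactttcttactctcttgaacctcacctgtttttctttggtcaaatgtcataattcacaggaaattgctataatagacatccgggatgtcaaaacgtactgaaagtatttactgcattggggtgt
Mmp8: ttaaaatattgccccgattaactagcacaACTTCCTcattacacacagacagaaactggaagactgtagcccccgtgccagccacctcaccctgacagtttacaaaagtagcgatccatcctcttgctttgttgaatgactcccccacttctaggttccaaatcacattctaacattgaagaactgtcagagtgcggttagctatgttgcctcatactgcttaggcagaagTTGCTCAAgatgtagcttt
Ngp: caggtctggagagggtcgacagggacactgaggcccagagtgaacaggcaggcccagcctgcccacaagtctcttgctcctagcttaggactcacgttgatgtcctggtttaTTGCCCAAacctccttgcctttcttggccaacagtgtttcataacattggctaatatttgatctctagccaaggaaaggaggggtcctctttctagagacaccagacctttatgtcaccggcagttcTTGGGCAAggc
Ltf: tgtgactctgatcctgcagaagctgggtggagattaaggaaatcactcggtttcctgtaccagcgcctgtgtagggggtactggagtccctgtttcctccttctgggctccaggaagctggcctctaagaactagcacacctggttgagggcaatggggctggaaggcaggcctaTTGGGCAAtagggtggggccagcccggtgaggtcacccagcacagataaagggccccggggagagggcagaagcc

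S100a8 holds the PU.1 core 165 bases and TATAAA 24 bases before its start, while its neighbour S100a9 holds only the C/EBP core, 228 bases before. Ngp has 2 C/EBP matches and Mmp8 has both a C/EBP and a PU.1 match. No match was found in the windows of Csf3r, Cxcr2 and Camp. These are letter matches in a fixed window and not measured sites of binding.

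The libraries held between 3205822 (L6) and 9366774 (L1) reads on genes. A count of 3, taken as the smallest amount detected, is 0.320 CPM in L1 and 0.936 CPM in L6. Over 17231 tested genes, edgeR's quasi-likelihood test called 0 (0%) at an adjusted P under 0.05 and at least 2-fold, and the smallest adjusted P was 0.832. At an unadjusted P under 0.05 there were 976 genes, of which 542 (3.15%) were higher and 434 (2.52%) lower in RAG1-/-Sgo1-/+. With TMM scaling the split was 411 higher and 536 lower. DESeq2's Wald test called 1 gene (Awat1). Some libraries, L2, L6 and L1, stand apart from the others or from their labels. L2 held 1853 reads of the immunoglobulin gene Igkc against 8 in L1 and 0 in the other 4 libraries, which goes against its RAG1-/- label. L6 held 19501 reads of Chil3 and 737 reads of Arg1, both genes of activated macrophages, where no other library exceeded 6096 and 20. L1 held 7717 reads of Xist and the other 5 held 4 to 8, so the RAG1-/- group was not of 1 sex. Sgo1 itself had 0 to 6 reads per library, too few to check the genotype, and Rag1 had 8 to 24.

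S100a8 and S100a9, the subunits of calprotectin, were the members with the largest differences. S100a9 had 50.3, 32.3 and 48.9 CPM in RAG1-/- (L1 to L3) and 8.28, 26.3 and 13.7 CPM in RAG1-/-Sgo1-/+ (L4 to L6). Every RAG1-/- library was above every RAG1-/-Sgo1-/+ library. The means were 43.8 ± 9.99 and 16.1 ± 9.24 CPM (SD, n = 3 each), and the fitted log2 fold change was -1.43 (SE 0.35). S100a8 had 44.7, 20.2 and 33.9 CPM in RAG1-/- and 5.86, 16.7 and 20.6 CPM in RAG1-/-Sgo1-/+. Here the groups touched, since L6 was just above L2. Its means were 32.9 ± 12.3 and 14.4 ± 7.63 CPM (SD, n = 3 each), with a log2 fold change of -1.23 (SE 0.40). In these bulk samples fewer neutrophils and less RNA per neutrophil cannot be told apart.

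Csf3r, the receptor for the granulocyte growth factor G-CSF, was the steadiest member. It had 13.9, 12.1 and 13.9 CPM in RAG1-/- and 6.26, 11.5 and 7.49 CPM in RAG1-/-Sgo1-/+, again with no overlap, although L5 came within 1 CPM of L2. The means were 13.3 ± 1.03 and 8.41 ± 2.73 CPM (SD, n = 3 each), and the log2 fold change was -0.65 (SE 0.27). Its highest library was 2.22 times its lowest, against 7.64 times for S100a8.

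Retnlg and Cxcr2 had overlapping groups. Retnlg, a resistin-like protein secreted by neutrophils, had 7.47, 5.66 and 3.33 CPM in RAG1-/- and 2.42, 2.22 and 4.99 CPM in RAG1-/-Sgo1-/+. The fit gave a log2 fold change of -0.83 (SE 0.46), on 12 to 70 reads per library. Cxcr2, the receptor for the chemokines that draw neutrophils into tissue, had 3.63, 2.83 and 3.93 CPM in RAG1-/- and 0.808, 2.96 and 3.74 CPM in RAG1-/-Sgo1-/+. Only L4, with 4 reads, was below the RAG1-/- range. The log2 fold change of Cxcr2 was -0.51 (SE 0.55), and it was -0.069 without L4.

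All 5 mature members had a lower mean in RAG1-/-Sgo1-/+, with a median log2 fold change of -0.83 beside 0.034 over all tested genes. Of the 8 tested members, 2 (S100a9 and Csf3r) had groups that did not overlap and were lower, beside 5.54% of all tested genes, and 0 were apart and higher, beside 6.24%. Since this contrast helped to choose the members, nothing is read from these counts. The library L4 held the lowest level of 4 of the 5 mature members, all but Retnlg. L1 held the highest level of 3 of them and L3 of the remaining 2. The direction of each of the 5 was the same in 12 of 12 alternative settings, and the median lay between -1.24 without L6 and -0.62 without L1. These settings reuse the same libraries for members chosen with the contrast known, so they are not independent support for the direction.

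**Figure D1:**
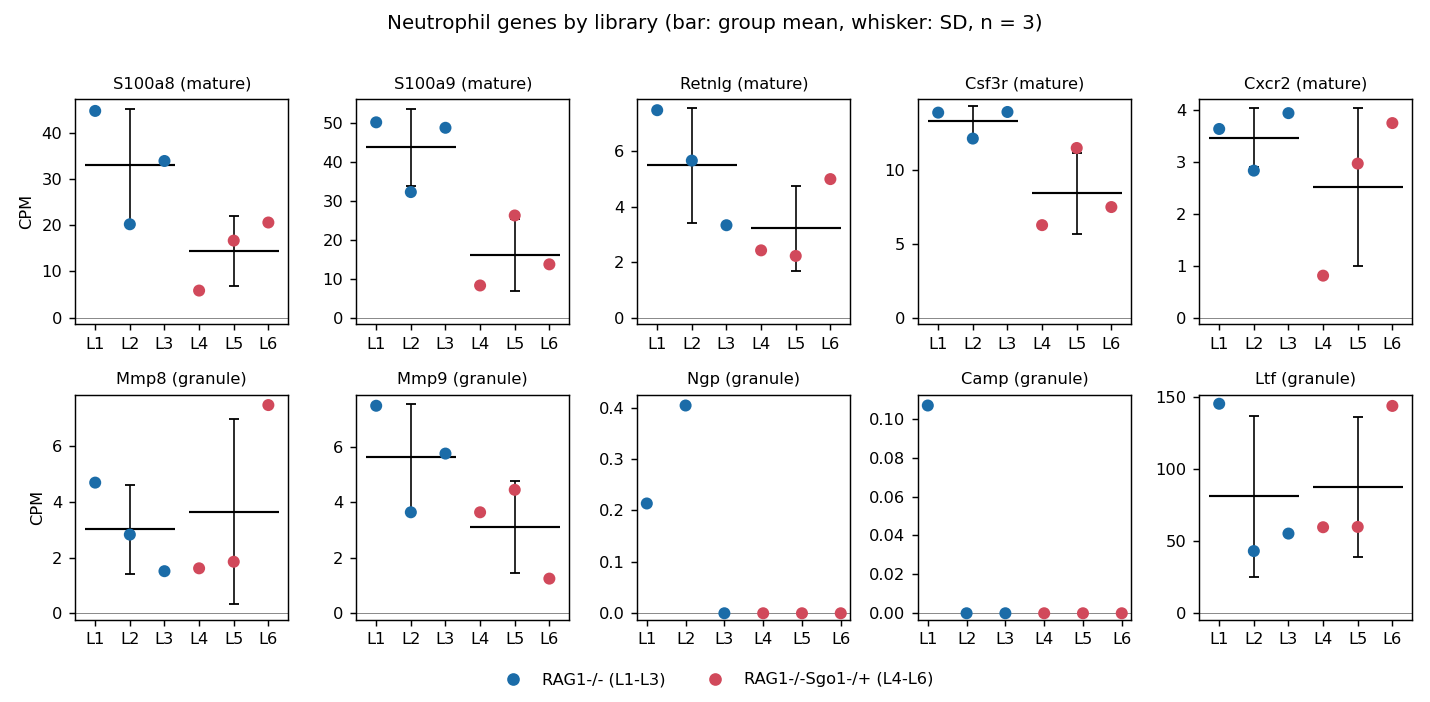
CPM (vertical axis of each panel, each with its own scale) of the 10 members in the 6 libraries, with RAG1-/- in blue and RAG1-/-Sgo1-/+ in red. Black bars and whiskers are the group mean and SD (n = 3) and are left out for Ngp and Camp, which had at most 2 reads in a library. S100a9 and Csf3r show no overlap between the groups, and Mmp8 and Ltf are highest in L1 and L6.

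The granule members showed no common direction. Ltf, the iron-binding lactoferrin of specific granules, was the most abundant member by read count, with 145.6, 43.2 and 55.4 CPM in RAG1-/- and 59.8, 60.02 and 144.1 CPM in RAG1-/-Sgo1-/+. One library of each genotype, L1 and L6, stood well above the other 4, which lay between 43.2 and 60.02 CPM. Over all libraries Ltf had 3026 reads, where Ngp and Camp, of the same granule stage, had 4 and 1. The part of epithelial transcripts in the Ltf values was not tested. The means were 81.4 ± 55.9 and 88.0 ± 48.6 CPM (SD, n = 3 each), and the log2 fold change was 0.088 (SE 0.46). It was 0.82 without L1, and turned negative without L2 (-0.21), L3 (-0.13) or L6 (-0.46).

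Mmp8, the neutrophil collagenase, followed the same libraries, with 4.70, 2.83 and 1.51 CPM in RAG1-/- and 1.62, 1.85 and 7.49 CPM in RAG1-/-Sgo1-/+. Its log2 fold change of 0.18 (SE 0.67) became -0.81 without L6 and -0.14 without L3, and was 0.69 without L1. Mmp9, the gelatinase that is stored in late granules, went the other way in L6. It had 7.47, 3.64 and 5.75 CPM in RAG1-/- and 3.64, 4.45 and 1.25 CPM in RAG1-/-Sgo1-/+, with L6 at 4 reads the lowest library. The fit gave a log2 fold change of -0.82 (SE 0.47) and it was negative in 12 of 12 alternatives, which reuse the same libraries. The ratio of Mmp8 to Mmp9 was 0.629, 0.778 and 0.263 in L1 to L3, 0.444 and 0.417 in L4 and L5, and 6 in L6, from 24 reads of Mmp8 and 4 of Mmp9.

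Ngp and Camp, which encode the neutrophilic granule protein and the cathelicidin antimicrobial peptide, were at the limit of detection. Ngp had 2 reads in L1, 2 in L2 and 0 in the other 4 libraries, and Camp had 1 read in L1 and 0 in the others. Both stayed under the 3 reads taken as detected in every library, so no fold change is given. They are transcribed in bone marrow precursors rather than in circulating cells, but the reason for their low counts here was not tested. Of 11 genes of primary granules, 6 (Mpo, Elane, Ctsg, Ms4a3, Bpi and Prss57) had 0 reads in all 6 libraries. A count of 0 in a library allows up to 0.320 to 0.936 CPM, depending on its depth, for counting error only.

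**Figure D2:**
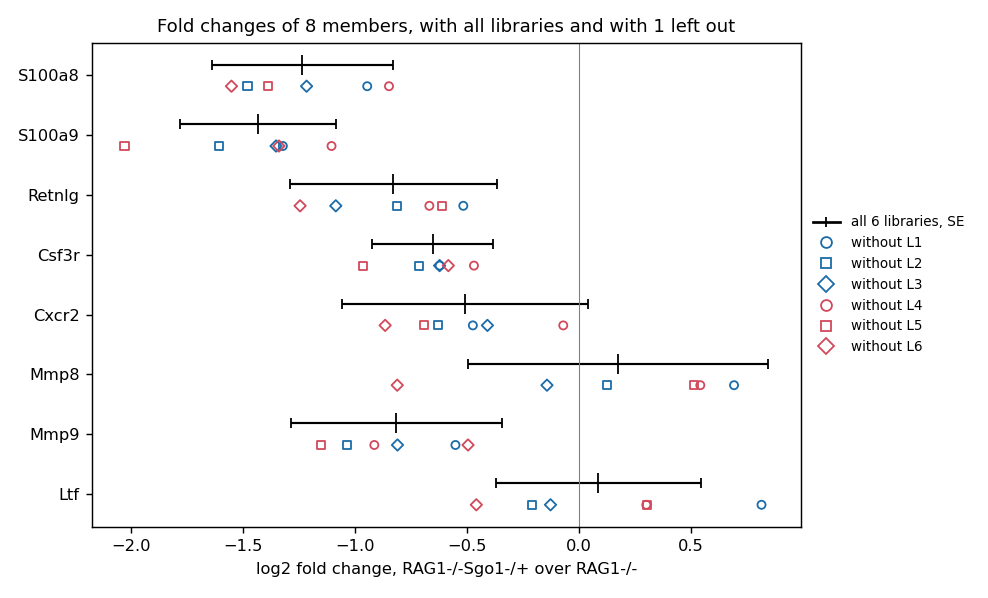
Log2 fold change (horizontal axis, RAG1-/-Sgo1-/+ over RAG1-/-) of the 8 members in the fit, as a black bar with its SE from all 6 libraries, and as open symbols with 1 library left out (blue for RAG1-/- and red for RAG1-/-Sgo1-/+). The 5 mature members and Mmp9 stay below 0 in every setting, while Mmp8 runs from -0.81 to 0.69 and Ltf from -0.46 to 0.82.

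Levels of different genes were compared per exon length, as CPM per kilobase of exon (RPKM). S100a9 had the highest mean over the 6 libraries of both genotypes, 57.4 RPKM, with a range from 15.9 to 96.3. S100a8 followed with 34.1 (8.44 to 64.5) and Ltf with 24.5 (12.5 to 42.2). Retnlg was at 7.33 (3.75 to 12.6) and Csf3r at 3.01 (1.74 to 3.86). Mmp8 (1.37), Mmp9 (1.23) and Cxcr2 (0.979) were close together, and Ngp (0.084) and Camp (0.023) were last. The ranges of all neighbours in this order overlapped across the libraries. Within a library, Ltf was above Retnlg and Retnlg above Csf3r in 6 of 6, S100a9 above S100a8 in 5 of 6 and Csf3r above Mmp8 in 5 of 6. S100a9 was above Ltf in L1, L2, L3 and L5, but Ltf was higher in L4 (17.3 against 15.9 RPKM) and L6 (41.8 against 26.3). S100a8 was above Ltf in 4 of 6 libraries and Mmp8 above Mmp9 in 2 of 6, so these pairs have no settled order. The lengths come from GENCODE's annotation of GRCm38 and the reads were counted on an earlier build, so RPKM values are approximate.

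The partners of calprotectin kept a narrow ratio in 5 libraries. S100a8 made up 47.1% of the reads of both genes in L1 (95% Wilson interval 43.8 to 50.4), 38.5% in L2 (32.8 to 44.5), 41.0% in L3 (36.9 to 45.1), 41.4% in L4 (30.6 to 53.1) and 38.8% in L5 (32.8 to 45.2). In L6 the share was 60% (50.7 to 68.7), from 66 reads of S100a8 and 44 of S100a9. With counts halved, since both mates of a read pair may have been counted, the interval of L6 was 46.8 to 71.9. That is wide enough to reach the share of L1 (47.1%), and the intervals cover counting error only. The share did not separate the genotypes, at 42.2% ± 4.43 and 46.7% ± 11.6 (SD, n = 3 each).

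Summed over their genes, the mature members had 120, 73.1 and 104.0 CPM in RAG1-/- and 23.6, 59.6 and 50.5 CPM in RAG1-/-Sgo1-/+, with means of 99.0 ± 23.8 and 44.6 ± 18.7 (SD, n = 3 each). S100a8 and S100a9 gave 59.8% to 79.6% of that sum. The granule members had 158.1, 50.1 and 62.7 CPM in RAG1-/- and 65.1, 66.3 and 152.8 CPM in RAG1-/-Sgo1-/+, with means of 90.3 ± 59.1 and 94.7 ± 50.3. Ltf gave 86.3% to 94.3% of the granule sum, so this sum is close to a measure of Ltf alone, whose cell source was not tested. Without Ltf the granule sums were 12.5, 6.87 and 7.26 CPM in RAG1-/- and 5.25, 6.30 and 8.73 CPM in RAG1-/-Sgo1-/+. The log2 ratio of the granule to the mature sum was 0.40, -0.55 and -0.73 in L1 to L3 and 1.46, 0.15 and 1.597 in L4 to L6. L1 was above L5, so the groups overlapped. The difference of the means was 1.36, and 0.70 when each gene was given equal weight on the log2 scale. The equal weighting includes Ngp and Camp, whose log2 values depend on the prior count and the depth of the library.

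**Figure D3:**
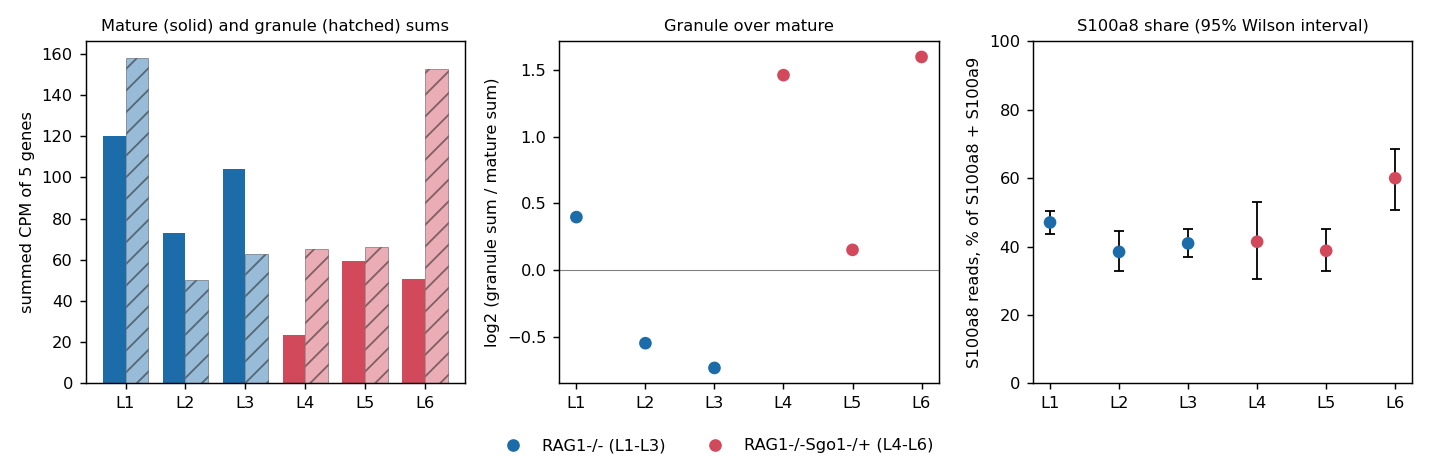
Left, summed CPM of the 5 mature (solid bars) and 5 granule members (hatched bars) in each library. Middle, log2 ratio of the granule sum to the mature sum. Right, reads of S100a8 as a percentage of those of S100a8 and S100a9, with 95% Wilson intervals. RAG1-/- is blue and RAG1-/-Sgo1-/+ is red. The mature sums are 73.1 to 120 CPM in RAG1-/- and 23.6 to 59.6 CPM in RAG1-/-Sgo1-/+, the ratio overlaps between L1 and L5, and L6 has the highest S100a8 share.

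Other markers of mature neutrophils were listed to see whether they moved with the members. Of 25 listed genes 23 were in the table and 20 were tested, and 13 of those were higher and 7 lower in RAG1-/-Sgo1-/+, with a median log2 fold change of 0.12. None was called. At an unadjusted P under 0.05, 1 was lower (Mcemp1) and 0 higher, beside 2.52% and 3.15% of all genes. Without L6 the balance turned, to 6 higher and 14 lower with a median of -0.27. Hdc, picked out as the most abundant of the list, had 199.4, 171.7 and 160.0 CPM in RAG1-/- and 186.5, 190.2 and 203.7 CPM in RAG1-/-Sgo1-/+. The part of other cells' transcripts in this list was not tested, so its median is not read as a result about neutrophils. Ly6g, the surface antigen by which mouse neutrophils are usually recognised, had 0 reads in all 6 libraries, as had G0s2. For genes with 0 reads in every library, whether the deposited counting could register their reads was not tested. Such counts are not read as absence of the transcript. Mcemp1, a membrane protein of myeloid cells, had 28.5, 19.0 and 18.3 CPM in RAG1-/- and 19.2, 11.7 and 13.7 CPM in RAG1-/-Sgo1-/+. The fit gave a log2 fold change of -0.57 (SE 0.25, edgeR adjusted P = 0.832). Stfa2l1, a stefin of myeloid cells from a family of near-identical copies, had 12, 2 and 0 reads in L1 to L3 and none in L4 to L6. Lrg1, a secreted glycoprotein of neutrophils and activated endothelium, had 97.9, 65.3 and 50.4 CPM against 75.2, 68.2 and 277.9 CPM, and only L6 was outside the RAG1-/- range above.

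Other genes of specific and gelatinase granules leaned the opposite way from the mature members, but not without L6. Of 14 listed genes 13 were tested, 12 were higher and 1 lower, and the median log2 fold change was 0.79. At an unadjusted P under 0.05, 5 were higher, beside 3.15% of all genes, and edgeR called 0. Of these 5, Arg1 and Chil3 are also genes of activated macrophages, and the part of macrophage transcripts in this list was not tested. Without L6 the list had 6 higher and 7 lower, a median of -0.00079 and 1 gene on each side at that P. Lcn2, the siderophore-binding partner of gelatinase, had 114.7, 66.7 and 55.4 CPM in RAG1-/- and 110.1, 63.4 and 413.0 CPM in RAG1-/-Sgo1-/+. Its log2 fold change of 1.29 (SE 0.57, edgeR adjusted P = 0.832) was 0.13 without L6. Cd177, a surface glycoprotein of neutrophils, had 10.04, 7.07 and 12.7 CPM against 6.87, 11.5 and 133.2 CPM, and its log2 fold change of 2.28 became -0.12 without L6. Arg1 was 5.17 with all libraries and 0.31 without L6, on the log2 scale. Chil3, which mouse macrophages also secrete, turned from 2.44 to -0.73. Mmp25, a membrane-anchored metalloproteinase of leukocytes, was the exception. It had 5, 4 and 6 reads in L1 to L3 and 10, 18 and 10 in L4 to L6, with no overlap in CPM, a log2 fold change of 1.90 (SE 0.60, edgeR adjusted P = 0.832) and 1.84 without L6.

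**Figure D4:**
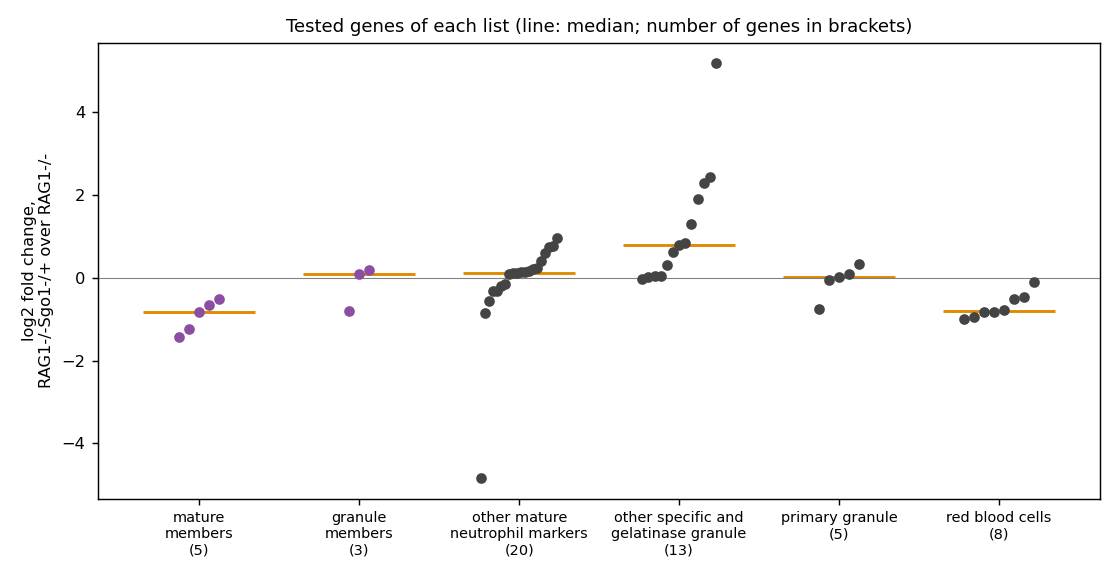
Log2 fold change (vertical axis, RAG1-/-Sgo1-/+ over RAG1-/-) of every tested gene of the members (purple) and of 4 other lists (grey), with the median of each list as an orange line. The median is -0.83 for the 5 mature members and 0.12 for 20 other mature markers, whose cell source was not tested. The lowest point, Stfa2l1, has 0 reads in RAG1-/-Sgo1-/+, so its fitted value depends on the prior count.

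The primary granule genes with enough reads for the fit showed no common direction with all libraries. Of 5 tested, 3 were higher and 2 lower, none passed an unadjusted P under 0.05, and the median log2 fold change was 0.010. Without L6, 0 were higher and 5 lower, with a median of -0.10. The 5 were Prtn3, Serpinb1a, Lyz2, Ctsc and Srgn. Lyz2, picked out as the most abundant of them, had 7233 (L5) to 10034 (L1) CPM. The part of other cells' transcripts in this list was not tested, so its median is not read as a result about neutrophils. Prtn3, the serine protease proteinase 3, had 12, 2 and 10 reads in L1 to L3 and 0, 3 and 5 in L4 to L6. Its log2 fold change was -0.75 (SE 1.06). Serpinb1a, an inhibitor of neutrophil proteases, was at 33.5 ± 2.92 and 35.7 ± 8.76 CPM (SD, n = 3 each). Srgn, the proteoglycan that packs granule proteins, was at 99.0 ± 3.43 and 125.1 ± 57.3 CPM, with L6 the highest at 190.9. Among the transcription factors of granulopoiesis, 10 of 10 tested had a positive log2 fold change, with a median log2 fold change of 0.15, but none passed an unadjusted P under 0.05. Spi1, which encodes PU.1, had 16.1, 10.7 and 9.38 CPM against 10.1, 18.2 and 32.4 CPM. Cebpe, the C/EBP factor of the specific granule stage, had 2 reads in L3, 2 in L4 and 0 in the others. Cebpd was at 88.0 ± 17.7 and 107.3 ± 35.1 CPM and Klf5 at 12.2 ± 3.80 and 15.4 ± 2.34 CPM.

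Ligands of the receptors among the members ranged widely in level. Csf3, which encodes G-CSF and signals through Csf3r, had 2, 1 and 4 reads in L1 to L3 and 0 in each of L4 to L6, under the level needed for the fit. Of the Cxcr2 ligands, Cxcl1 had 17, 2 and 14 reads in L1 to L3 and 7, 16 and 16 in L4 to L6. In CPM these were 1.81, 0.404 and 2.12 against 1.41, 2.96 and 4.99. The log2 fold change of Cxcl1 was 1.02 (SE 0.69, edgeR adjusted P = 0.855), and 0.55 without L6. Cxcl2 had 8, 0 and 8 against 2, 4 and 12 reads, or 0.854, 0 and 1.21 against 0.404, 0.741 and 3.74 CPM. Its log2 fold change of 1.06 (SE 1.10, edgeR adjusted P = 0.894) became -0.32 without L6. Cxcl5, a ligand made by lung epithelium, had 3.74, 1.62 and 4.84 CPM against 4.04, 5.37 and 10.6 CPM, with a log2 fold change of 0.91 (SE 0.49, edgeR adjusted P = 0.832). Among genes of the list singled out after their values were seen, Ppbp, a platelet chemokine that acts on Cxcr2, had 24.6, 23.4 and 24.2 CPM against 35.6, 19.8 and 29.9 CPM. Cxcl15, a chemokine of lung epithelium, was the most abundant of the list at 2416 to 3292 CPM. Il1b, an inflammatory cytokine of myeloid cells, leaned the way of the mature members, with 8.54, 5.46 and 8.93 CPM against 3.64, 7.04 and 5.93 CPM. Of the 14 tested genes of this list 9 were higher and 5 lower, the median log2 fold change was 0.18 (-0.015 without L6, with 7 on each side), and none passed an unadjusted P under 0.05.

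Genes of adhesion and migration were split, 9 higher and 7 lower of 16 tested with a median of 0.15, and 8 on each side with a median of -0.0041 without L6. Itgb2, the beta chain of leukocyte integrins, had 56.0, 41.8 and 33.3 CPM against 41.2, 49.5 and 157.8 CPM, and Vcam1 of activated endothelium was at 108.5 ± 13.4 and 88.1 ± 8.20 CPM. For the NADPH oxidase and extracellular trap genes, 6 of 8 tested were higher with a median of 0.14 and none at an unadjusted P under 0.05. Without L6, 3 were higher and 5 lower, with a median of -0.082. The oxidase subunits Cyba and Ncf4 were highest in L6, at 173.1 and 18.4 CPM, where the other libraries had 63.6 to 75.8 and 3.43 to 6.85.

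The other metalloproteinases and their inhibitors were set beside Mmp8 and Mmp9. Of 8 tested, 5 were higher and 3 lower with a median of 0.18, and without L6, 2 were higher and 6 lower with a median of -0.039. At an unadjusted P under 0.05, 2 were higher (Mmp12 and Mmp19) and 1 lower (Mmp3), beside 3.15% and 2.52% of all genes. Mmp12, the elastase of macrophages, had 5.12, 4.44 and 3.93 CPM in RAG1-/- and 5.25, 12.97 and 594.2 CPM in RAG1-/-Sgo1-/+. Its log2 fold change of 5.47 was 1.01 without L6, and that of Mmp19 turned from 1.35 to -0.030. Mmp3, the stromelysin of fibroblasts, had 13.5, 19.6 and 19.2 CPM against 11.3, 9.63 and 6.86 CPM, with no overlap, and its log2 fold change was -0.88 (SE 0.26, edgeR adjusted P = 0.832). Timp1, an inhibitor that binds Mmp9, had 4.80, 13.7 and 4.84 CPM against 3.23, 5.93 and 37.4 CPM. In L6 the inhibitor was at its highest and Mmp9 at its lowest among the 6 libraries.

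Markers of other cells were summed to see what else differed beside the mature members. Red blood cell genes were lower in RAG1-/-Sgo1-/+, 8 of 8 tested, with a median log2 fold change of -0.80 and 5 of them at an unadjusted P under 0.05, beside 2.52% of all genes. The edgeR adjusted P of each was at least 0.832. The red cell sums were 3461, 5811 and 9314 CPM in RAG1-/- and 2613, 4723 and 3148 CPM in RAG1-/-Sgo1-/+, so they overlapped and were lowest in L4, where the mature members were also lowest. The highest red cell sum was in L3 and the highest mature sum in L1. Without L3 or without L4, 0 of 8 red cell genes passed that P, with medians of -0.30 and -0.62, and without L6 1 passed, with a median of -0.72. The part of retained blood in the values of the mature members was not tested. Hbb-b1, a beta globin, was at 1117 ± 587 and 573.6 ± 197 CPM (SD, n = 3 each), and Hba-a2, an alpha globin, at 1523 ± 682 and 856.2 ± 226.5 CPM, although near-identical globin copies may share reads. Bpgm, an enzyme of red cell glycolysis, had 93.3, 107.5 and 152.8 CPM against 79.6, 90.8 and 86.1 CPM, with no overlap.

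Platelet genes did not go the same way. Of 10 tested 7 were higher and 3 lower, with a median of 0.32, and their sums were 72.6 to 94.4 CPM in RAG1-/- and 77.4 to 115.1 CPM in RAG1-/-Sgo1-/+. Gp5, a subunit of the platelet receptor for von Willebrand factor, was higher at an unadjusted P under 0.05, with 1.71, 4.85 and 4.54 CPM against 8.48, 6.30 and 7.49 CPM. Monocyte markers summed to 788 to 1115 CPM in RAG1-/- and 662 to 6653 CPM in RAG1-/-Sgo1-/+, the upper end being L6. Chil3 gave most of that range, and without it the sums were 464.3, 466.9 and 702.6 CPM against 412.5, 477.0 and 570.2 CPM. Of 10 tested monocyte genes 6 were higher and 4 lower with a median of 0.066, and without L6 there were 3 higher and 7 lower with a median of -0.34. Nr4a1, a factor of patrolling monocytes that is also an immediate early gene, had 85.8, 61.8 and 212.5 CPM against 43.4, 27.2 and 44.6 CPM, with a log2 fold change of -1.65 (SE 0.41, edgeR adjusted P = 0.832). The part of monocyte transcripts in S100a8, S100a9 and Csf3r was not tested.

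The remaining lists gave the following. Alveolar macrophage genes had 5 higher and 8 lower of 13 tested, with a median log2 fold change of -0.25. Without L6 there were 2 higher and 11 lower, with a median of -0.73. Without Chil3 the sums of this list were 592 to 1003 CPM in RAG1-/- and 531 to 1006 CPM in RAG1-/-Sgo1-/+. Siglecf, a lectin of alveolar macrophages and eosinophils, had 9.61, 11.3 and 9.08 CPM against 4.44, 5.93 and 6.24 CPM. Epx and Ccr3, which define eosinophils, had 0 reads in all libraries, and the eosinophil list had 3 tested genes. NK cell genes had 8 lower and 2 higher of 10 tested, with sums of 32.7 to 74.6 CPM against 26.5 to 43.0 CPM. Gzma was the gene lower at an unadjusted P under 0.05, beside 2.52% of all genes. B cell genes summed to 747 CPM in L2 and to 21.1 to 34.3 CPM in the other 5 libraries, and T cell genes to 69.1 CPM in L2 and 19.8 to 46.5 CPM in the others. Mast cell and basophil sums were 96.7 to 119.6 against 77.0 to 114.7 CPM. Epithelial sums were 80969 to 102646 CPM against 83962 to 102355 CPM, with surfactant and secretoglobin genes abundant in every library, and endothelial sums were 2049 to 2073 against 1560 to 2129 CPM. Progenitor and cycling cell genes without Chil3 summed to 356.4 to 485.7 against 354.2 to 374.9 CPM.

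**Figure D5:**
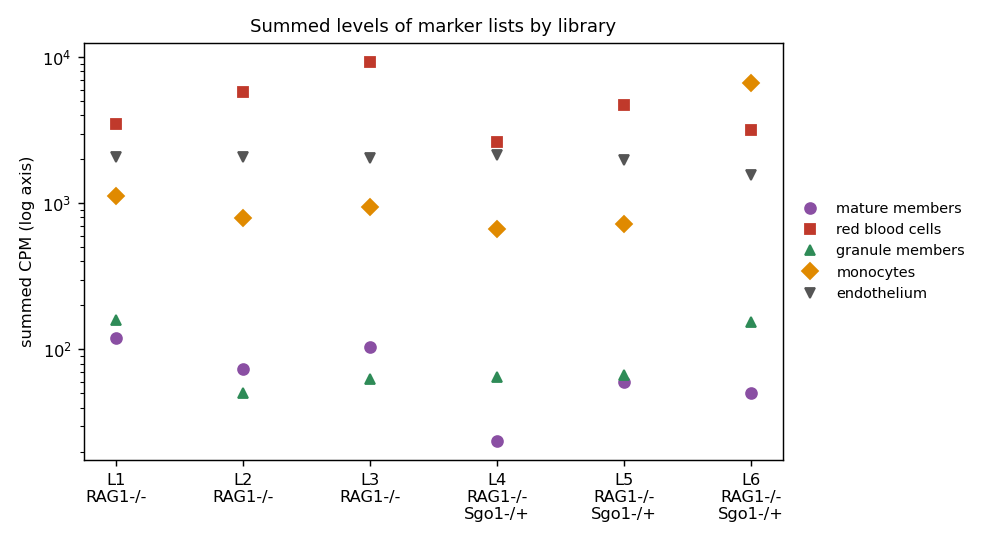
Summed CPM (log axis) of the mature and granule members and of 3 marker lists in the 6 libraries, with the genotype under each library. The mature members and the red blood cell genes are both lowest in L4, and the monocyte sum is highest in L6, where it reaches 6653 CPM.

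Genes whose pattern over the 6 libraries was most like the members were ranked among 14442 genes by Pearson's r with the mean standardised log2 CPM, as a description over 6 points that share libraries and depth. For the mature members the 8 leading genes had r from 0.965 to 0.983. They were Laptm4b, Dhx40, Pcca, Gcdh, Fahd1, Prickle1, Zfp947 and Nudt7, and none of them is in a list of neutrophil genes. Laptm4b, a lysosomal membrane protein, had 67.4, 65.3 and 66.6 CPM in RAG1-/- and 53.7, 63.0 and 61.1 CPM in RAG1-/-Sgo1-/+, a far smaller range than that of S100a9. It was lowest in L4, as 4 of the 5 mature members were. Shared extremes of the leading genes named here follow from the ranking by r. Slfn4, a gene of myeloid cells that was picked out after its values were seen, had r = 0.939, with 11.7, 5.25 and 6.96 CPM against 1.21, 5.74 and 6.86 CPM, and Il1b had r = 0.884. The globin Hba-a1 had r = 0.531. For the 3 tested granule members the leading genes were Efcab11, Mrpl40, Mpc1-ps, Slc41a1, Smim8, Wdr7, Wfdc13 and Ndufs7, with r from 0.963 to 0.983. Mrpl40, a mitochondrial ribosomal protein, had 31.6, 26.1 and 26.6 CPM against 27.1, 26.9 and 29.3 CPM, highest in L1 and then L6 as Ltf was. Lcn2 had r = 0.467 with the granule members and -0.19 with the mature members.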

How the data were processed

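RNA was taken from lung of 6 mice, and TruSeq V2 libraries were sequenced on a MiSeq. The authors deposited whole-number read counts per gene, made with GeneSifter on mouse build 37.2, and the submitters' processing notes name BWA and edgeR. The handling of multi-mapped reads and of mates is not given in the sources used here. Each library is given in 2 identical columns, and 1 was used. The authors' list of fold changes and P values was not used. Of 25860 genes, 24048 (93.0%) matched a symbol by Entrez Gene ID.

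CPM is reads over the library's total count. edgeR 4.0.16 (R 4.3.3) fitted 17231 genes with at least 10 reads summed, with the quasi-likelihood test, library totals as size, no further factor and Benjamini-Hochberg adjustment. The code of the fit was run on simulated counts with the same dispersion for every gene and no library that stood apart. That run does not measure the power of the fit on these libraries. Alternatives were TMM and DESeq2 size factors, DESeq2 1.42.0, no filter, halved counts (most counts were even) and leaving out libraries. P values set the difference of the genotypes against the spread between 3 libraries per genotype, which is moderated across genes. Each SE is the absolute log2 fold change over the square root of the F statistic of edgeR's test. For the members the SE is given as a description and not as a test. Promoters were read from RefSeq windows.

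The members and lists were chosen with earlier results of these data known. Besides the members, up to 3 tested genes with the lowest unadjusted P were named per list, plus 11 fixed genes, 4 library checks and 8 genes most like each member group by r. Some genes of these lists are not reported here.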

Additional observations from a re-analysis of the deposited data

How the results depend on the processing

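Depth limits the low members: Cxcr2, Mmp8 and Mmp9 rested on 4 to 70 reads per library and Ngp and Camp on at most 2. Of 187 values recomputed under alternatives, 167 stayed within their margin (1.5 times for a count, 1 SD between replicates for a value) and 20 moved by more, some of them across 0. Some values within their margin also crossed 0, among them Ltf without L2 (-0.21), L3 (-0.13) or L6 (-0.46). Staying within the margin is therefore not the same as keeping a direction. No paired analysis was possible because the library numbers are not shared between the genotypes. The count of called genes was 0 except 1 under DESeq2's Wald test (Awat1, adjusted P = 0.000855) and 1 without L5 (H2-K1, adjusted P = 0.00226), a range of 0 to 1 with 1 library left out. With 1 library left out, genes at an unadjusted P under 0.05 numbered 307 (without L2) to 907 (without L4) higher and 259 (without L3) to 579 (without L1) lower. The median log2 fold change of the mature members ranged from -1.24 to -0.62, that of the granule members from -0.49 (without L6) to 0.69 (without L1), and the log2 granule to mature ratio from 1.10 to 1.82. Without the filter the granule median was -0.82, since the fitted values of Ngp and Camp, which depend on the prior count, then enter it. Without both L2 and L6, an alternative chosen after seeing the data, 291 genes were higher, the mature median was -1.23 and the granule median -0.75. Single members that moved were Mmp8, to -0.81 without L6 and -0.86 without L2 and L6, and Ltf, to -0.75 without L2 and L6. The cause of these changes was not tested.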
